A study of Mus musculus with 4 samples.

Results

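The regions described are the MafG peaks at the ends of protein-coding genes in mouse liver. They are the deposited peaks on chromosomes 1 to 19 whose midpoint lies within 1 kb of either end of a protein-coding gene. This rule uses position only, and it picked 5212 of the 66904 peaks on these chromosomes (7.79%) and of the 68763 peaks in the whole list. Genes and positions are those of RefSeq on GRCm38.p6, the assembly also called mm10. An end is called a start where the RefSeq promoter table gives the gene's strand, as it did for 16457 of 20665 genes, and the opposite end of such a gene is called its far end. Starts are the outermost ends in the gene table, and the promoter table can place a start farther inside. For the other 4208 genes the ends could not be told apart. Exons, introns and untranslated regions were not separated.

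The study mapped MafG on chromatin by chromatin immunoprecipitation with sequencing, and its title names the repression of bile acid synthesis as its subject. The 4 libraries came from formaldehyde-fixed livers of C57BL6/J mice, 2 treated with Ad BLRP MAFG and 2 with Ad BLRP Control. The design text says that the livers overexpressed MafG carrying the BLRP tag, and an Avi-tag antibody was used on both groups. The sources used here do not give the mice's age or the timing of treatment. Tagged MafG was not studied at a native level, the control livers carry no tagged MafG, and whole liver was used, so the cell type behind a peak cannot be told. Peaks do not measure expression, so the tissue label could not be checked against marker genes.

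MafG belongs to the small MAF proteins, which bind DNA through a basic leucine zipper but have no transactivation domain. It acts as a dimer, with itself or another small MAF, which represses, or with a CNC factor such as NRF2 or BACH1. NRF2 dimers activate antioxidant and detoxification genes in liver through a joint element made of an AP-1-like core and a flanking GC on the small MAF side. Promoters of widely expressed genes are often rich in CpG and hold GC boxes, CCAAT boxes and ETS sites, and a promoter between neighbouring genes transcribed in opposite directions is called bidirectional.

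The joint element, TGANTCAGC, was searched on both strands in the RefSeq promoter windows, which run from 250 bases before to 50 after a start. The following sequences show it at the 8 genes with the tallest peaks in a window that holds it. Each is a stretch of the promoter around the peak's midpoint, 5′ to 3′ on the gene's strand, from RefSeq on GRCm38.p6, with the element in capitals. The stretches lie at chr17:27839866-27839985 (Snrpc, plus strand), chr1:120073811-120073930 (Tmem37, minus), chr11:76945623-76945705 (Blmh, plus), chr4:25281891-25282010 (Ufl1, minus), chr19:4037934-4038053 (Gstp1, minus), chr2:181319588-181319707 (Rtel1, plus), chr13:23710841-23710960 (Hfe, minus) and chr4:116685417-116685536 (Prdx1, plus).
Snrpc: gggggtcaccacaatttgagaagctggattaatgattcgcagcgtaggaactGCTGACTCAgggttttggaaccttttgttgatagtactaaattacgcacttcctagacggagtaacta
Tmem37: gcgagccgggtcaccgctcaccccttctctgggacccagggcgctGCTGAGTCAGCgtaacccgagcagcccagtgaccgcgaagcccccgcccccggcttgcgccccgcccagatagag
Blmh: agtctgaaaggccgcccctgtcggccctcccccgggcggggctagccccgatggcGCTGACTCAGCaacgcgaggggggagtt
Ufl1: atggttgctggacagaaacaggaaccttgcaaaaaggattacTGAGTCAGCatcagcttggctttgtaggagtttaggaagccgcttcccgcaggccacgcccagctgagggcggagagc
Gstp1: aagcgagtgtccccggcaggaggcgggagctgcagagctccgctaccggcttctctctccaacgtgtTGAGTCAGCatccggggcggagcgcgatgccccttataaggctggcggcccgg
Rtel1: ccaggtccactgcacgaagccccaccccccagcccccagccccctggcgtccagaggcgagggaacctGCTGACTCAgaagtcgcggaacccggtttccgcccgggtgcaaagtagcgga
Hfe: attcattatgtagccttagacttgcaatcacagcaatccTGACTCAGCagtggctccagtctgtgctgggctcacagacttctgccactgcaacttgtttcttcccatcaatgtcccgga
Prdx1: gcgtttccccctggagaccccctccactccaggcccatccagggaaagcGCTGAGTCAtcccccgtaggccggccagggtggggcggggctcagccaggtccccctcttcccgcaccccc

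Tmem37 and Blmh carry the element on both strands over the same bases, so that GC flanks the core on both sides. The midpoint of the peak lay between 1 and 17 bp from the element in these 8 promoters. Snrpc, which encodes the C protein of the U1 splicing particle, had a normalized tag count of 388 (361 to 416), and the bleomycin hydrolase gene Blmh had 106 (92.2 to 121). The normalized tag count, called height below, is the authors' number of BLRP-MafG tags in the peak, scaled to 10000000 tags in all. The range in brackets is an exact 95% Poisson interval. Tmem37 had a height of 166 (148 to 184), and Ufl1, the ligase gene of the ubiquitin-like modifier UFM1, had 62.7 (52.3 to 74.6). Gstp1, a glutathione transferase gene, had 61.3 (51 to 73), and here the control held 8 tags, a ratio to control of 13.2 (exact interval 6.49 to 31.2). The telomere helicase gene Rtel1, the iron regulator gene Hfe and the peroxiredoxin gene Prdx1 had heights of 48 (39 to 58.5), 35.8 (28 to 45) and 32.3 (25 to 41.1).

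Tall peaks also stood in promoters without an exact copy of the joint element, and the search allowed no mismatch. The 4 tallest with the midpoint in a promoter window, shown for contrast, were at Gstm4, a glutathione transferase gene, with 141 (125 to 158), at Nol11, which acts in ribosome biogenesis, with 132 (117 to 149), at Resf1, a retroelement silencing factor gene, with 115 (101 to 131), and at Nlrp4e, of the NLR family, with 105 (91.7 to 120). Capitals mark the half-site TGCTGA on either strand, which is present in 3 of the 4 stretches and absent from that of Nol11. Each of the 4 stretches also holds a near copy of the joint element, on either strand, with a single base changed. These are TTAATCAGC at Gstm4, CGACTCAGC at Nol11, GCTGACCCA at Resf1 and TGACACAGC at Nlrp4e. The near copy at Nlrp4e also matches TGACNNNGC, the antioxidant response element core counted below. How often such near copies occur in other windows was not counted. The stretches lie at chr3:108044993-108045106 (Gstm4, minus strand), chr11:107189419-107189538 (Nol11, minus), chr6:149309164-149309281 (Resf1, plus) and chr7:23301015-23301134 (Nlrp4e, plus).
Gstm4: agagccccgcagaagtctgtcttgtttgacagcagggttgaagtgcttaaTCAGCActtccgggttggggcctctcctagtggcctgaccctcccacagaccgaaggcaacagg
Nol11: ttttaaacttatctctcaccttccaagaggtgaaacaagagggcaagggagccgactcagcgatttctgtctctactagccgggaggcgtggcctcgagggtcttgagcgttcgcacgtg
Resf1: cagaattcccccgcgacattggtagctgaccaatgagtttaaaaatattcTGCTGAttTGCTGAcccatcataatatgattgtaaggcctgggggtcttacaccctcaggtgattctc
Nlrp4e: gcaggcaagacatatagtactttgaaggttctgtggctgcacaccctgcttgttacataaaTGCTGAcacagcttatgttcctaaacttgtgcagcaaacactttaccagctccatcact

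The share of promoters with MAF-type motifs went up with the height of the peak in the window. A peak's midpoint lay in 1638 of the 20085 promoter windows, at 1551 genes, and windows of 1 gene with several starts can overlap. The joint element was in 1.11% of all windows and in 2.01% (exact binomial interval 1.39% to 2.82%) of those with a peak. Among windows whose peak had under 20 tags it was in 1.13% (0.487% to 2.2%), close to the share of all windows. With 20 to 49 tags it was in 1.94%, with 50 to 99 tags in 4.88%, and with 100 tags or more in 25% (5 of 20 windows, 8.66% to 49.1%). The intervals of the lowest and highest class do not overlap. They treat windows as independent, although the 20 windows hold 18 peaks at 19 genes. The half-site followed the same order, with 16%, 27%, 39% and 70% (14 of 20, 45.7% to 88.1%), against 17.9% of all windows. The antioxidant response element core, TGACNNNGC, was in 14.6%, 21.9%, 22% and 50% (27.2% to 72.8%) of these classes and in 13.1% of all windows. The AP-1 site TGANTCA, with or without the flanking GC, was in 5.98% of windows with a peak and 7.06% of all, and by class in 3.94%, 6.55%, 13.4% and 25% (8.66% to 49.1%). The element contains this site and can contain the half-site and the core, so these shares are not independent. A match describes the letters in the window and is not a measured binding site.

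Motifs of general promoters were more frequent in windows with a peak, but their shares showed no rise with height beyond the intervals. The GC box GGGCGG was in 64.5% (62.2% to 66.8%) of windows with a peak and in 47% of all, the ETS site CCGGAAG in 22.2% against 11.9%, the CCAAT box in 48.1% against 38.1%, and the NRF1 site GCATGCG in 8.73% against 4.51%. In windows whose peak had under 20 tags and in those with 100 or more, the GC box was in 67.9% and 70%, the CCAAT box in 46.7% and 50%, the ETS site in 24.9% and 20% and the NRF1 site in 9.7% and 0% (0 of 20, exact upper limit 16.8%). The intervals overlap for each of the 4. The TATA box TATAAA was rarer with a peak (7.51%, 6.28% to 8.89%) than in all windows (12.7%). The cAMP response element TGACGTCA in 3.24% against 2.3%, and the CACGTG E-box in 9.83% against 7.89%.

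**Figure D1:**
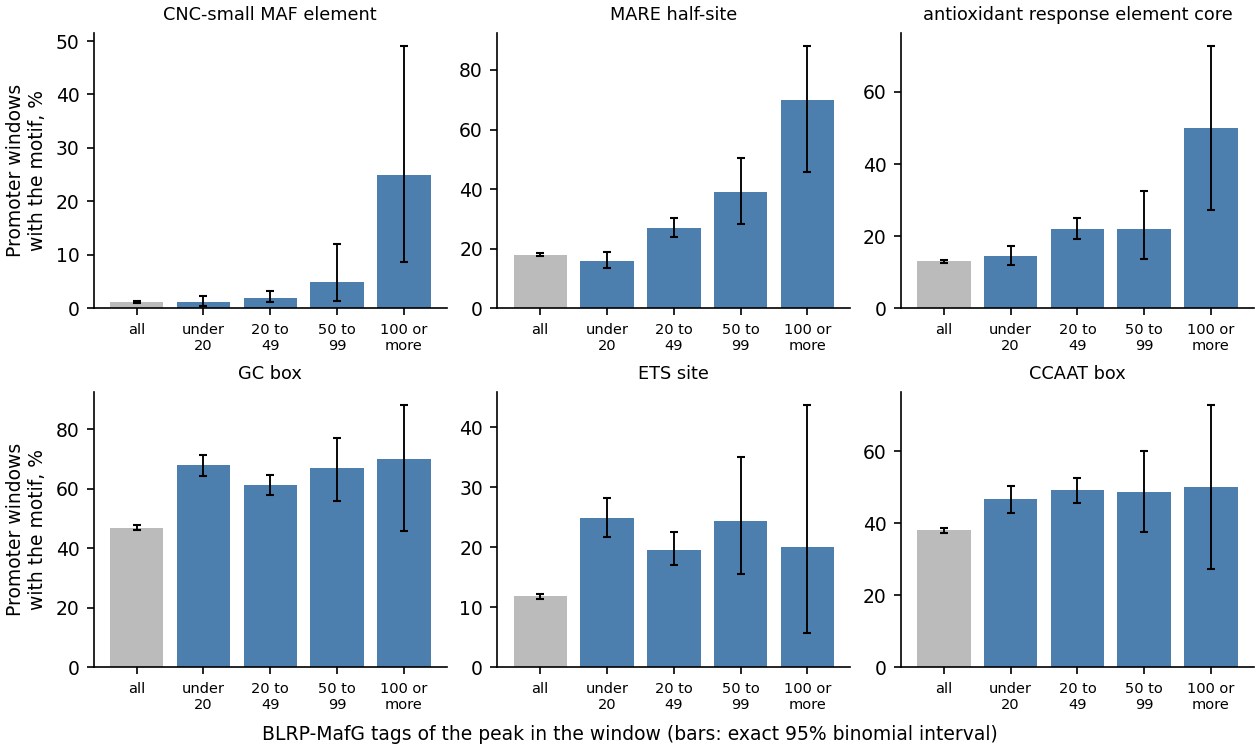
Share of promoter windows that hold each motif (y axis, percent), for all windows in grey and, in blue, for windows with a peak, by the peak's number of BLRP-MafG tags (x axis). Bars with caps are exact 95% binomial intervals. The joint CNC-small MAF element goes from 1.13% to 25% across the classes, whereas the GC box stays between 61.2% and 70%.

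The distance between motif and midpoint differed in the same way. The nearest joint element lay a median of 19 bp from the midpoint over 31 peaks, and within 50 bp in 24 of them. For the 9 of these peaks with a height of 25 or more it was within 50 bp in all 9. The half-site was within 50 bp in 88.1% of 42 peaks with a height of 25 or more that had one, and in 58.8% of 313 lower ones. For the GC box the figures were 55.4% of 56 and 54.8% of 878.

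Peaks of under 100 tags in promoter windows sat mostly in CpG-rich ones. Promoter windows held the midpoints of 1443 of the 5212 peaks, and the others were not classed by CpG. Of 9830 windows with a CpG content of at least 0.6 of that expected from their base composition, 13% held a peak, against 3.5% of 10255 windows below that. Median heights ran the other way, at 9.8 in CpG-rich and 12.3 in CpG-poor windows, and heights of 25 or more made up 4.85% and 9.47% of the windows with a peak. Of the windows with a peak 78.1% were CpG-rich, against 48.9% of all windows. By class the share was 82% with under 20 tags, 76.2% with 20 to 49 and 72% with 50 to 99. With 100 tags or more it was 40% (8 of 20 windows). The median CpG content was 0.807 where the peak had under 20 tags and 0.568 where it had 100 or more, against 0.586 in all windows.

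As a group, peaks at gene ends were low, with few tall ones. The median height was 10.8 (quartiles 7.84 and 16.7), against 12.7 (7.84 and 24.5) in the 61692 peaks farther than 1 kb from any end, and the lowest was 4.41. The lower quartiles were equal, so the groups parted in their upper range. A height of 100 or more was reached by 84 peaks (1.61%, 1.29% to 1.99%), against 3.73% of all peaks and 3.91% (3.76% to 4.07%) of those farther away. Heights of 200 or more were reached by 17 (0.326%), against 1.09% of all peaks. Over the surrounding 10 kb, the authors' deposited table gave a median fold of 8.78 at gene ends and 16.8 elsewhere. A deposited fold over control of at least 20 was held by 3054 peaks at gene ends (58.6%), against 64.2% of all peaks. The control held 0 tags at 2248 of them (43.1%), close to the 44% farther away.

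There is 1 value per peak, from 1 collection of BLRP-MafG tags and 1 of control tags. Whether a collection pooled both libraries of its group is not recorded, so no spread between animals can be given and nothing was tested. The BLRP-MafG collection held 20406492 tags, and the control an implied 17213969. The median peak at a gene end held 22 BLRP-MafG tags and 1 control tag, and 414 (7.94%) had a ratio to control whose exact lower limit exceeded 10, against 15.4% of all peaks and 16% of those farther than 1 kb from any end. Intervals cover counting error only, and sequencing tags are not always independent molecules. Peaks below a 10-fold excess over control or a 4-fold excess over the surroundings are not in the list, so a gene without a peak may hold weaker signal.

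Peaks at starts were more frequent but lower than peaks at far ends. Only starts were near 2966 peaks (56.9%), with a median height of 10.3 (quartiles 7.84 and 15.2). Only far ends were near 995 (19.1%), with a median of 12.3 (7.84 and 23.8), and only ends without strand near 929 (17.8%), with a median of 10.8. The remaining 322 lay near ends of several kinds. In a window of 500 bp the medians at starts only and at far ends only lay closer, at 10.8 and 11.3. A height of 100 or more was reached by 35 of the far-end peaks (3.52%, 2.46% to 4.86%) and by 28 of the start peaks (0.944%, 0.628% to 1.36%), intervals that do not overlap. The far-end share was close to the 3.73% of all peaks. Of the 223 peaks near both a start and a far end, 103 lay at a single short gene. The other 120 lay near the start of 1 gene and the far end of another.

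**Figure D2:**
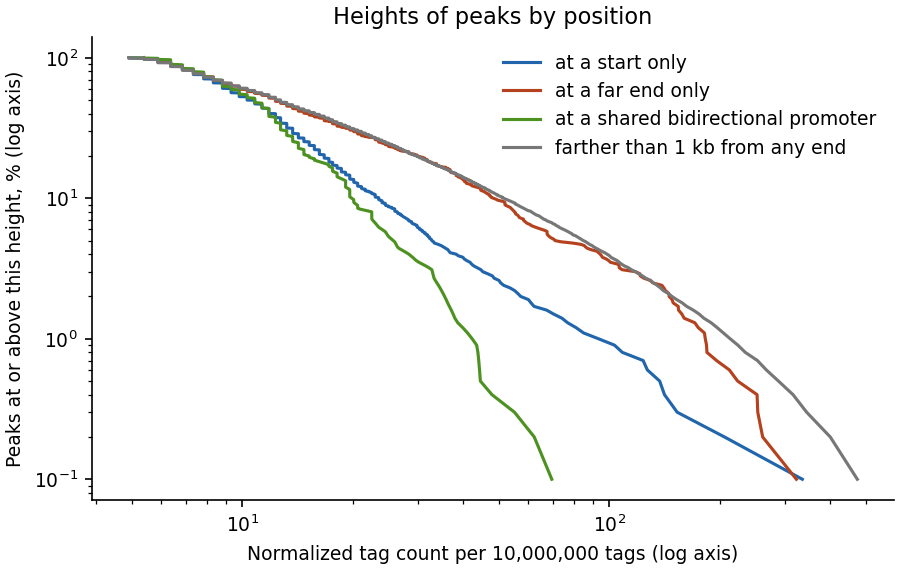
Share of peaks at or above a given height (y axis, percent, log axis) against height (x axis, normalized tag count per 10000000 tags, log axis), 1 line per position. Far-end peaks follow the peaks farther than 1 kb from any end up to a height of about 100, while start peaks, and further those at shared bidirectional promoters, fall below them.

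Peaks gathered within 200 bp of starts but not of far ends. Of 3598 pairs of a peak and a start, 29.3% had the midpoint in the 200 bp before the start and 17% in the 200 bp after it, against 4.17% in the stretch from 1000 to 800 bp before it. Around far ends the same 200 bp stretches held from 6.1% to 12.8% of 1327 pairs, and the 200 bp inside the end held the fewest. The share close to the start was smaller for tall peaks. Within 200 bp of a start lay 47.2% (44.5% to 49.8%) of start peaks with under 20 tags, 50% with 20 to 49, 37.6% with 50 to 99 and 32.3% (22.9% to 42.7%) with 100 or more. Of all start peaks, 52.3% lay outside the gene.

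**Figure D3:**
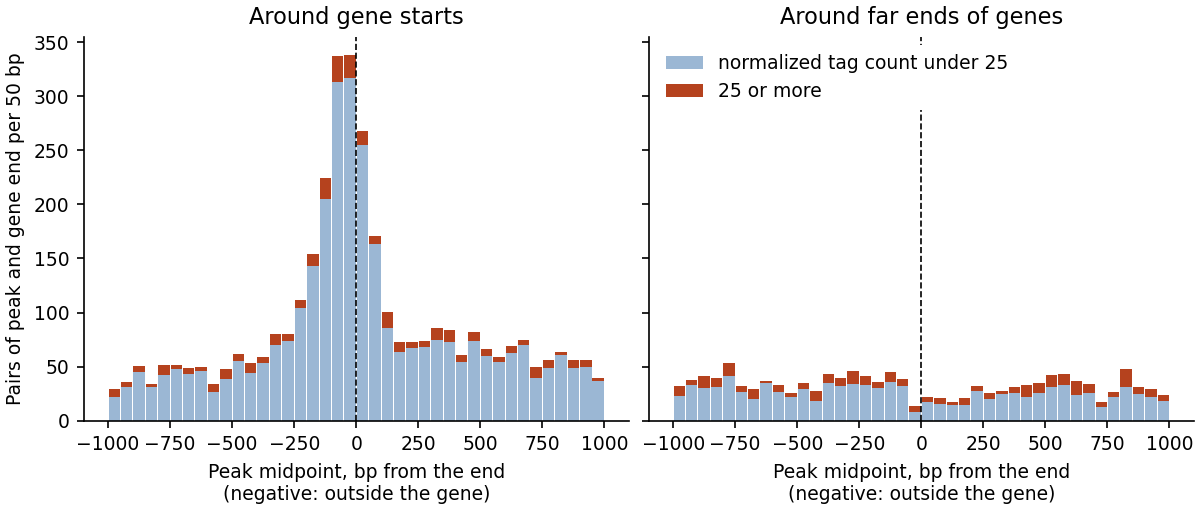
Number of pairs of a peak and a gene end (y axis) per 50 bp of distance from the end (x axis, negative values outside the gene), around starts and around far ends. Dark red marks heights of 25 or more. The pairs pile up at the start, where 29.3% lie in the 200 bp before it, and around far ends no 200 bp stretch holds more than 12.8%.

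The tallest peak at a gene end reached 666 (632 to 703) inside Zfp9, a zinc finger gene whose strand is not known here, at chr6:118462176-118462376, 326 bp from an end. It ranked 18th among all peaks in the whole list, with 4 control tags, which gives a ratio of 287 (112 to 1054). The heights of the 25 tallest went from there to 180, and their ranks among all peaks from 18 to 899. A start lay within 1 kb of 9 peaks and a far end within 1 kb of 13, with 1 peak counted under both, and 4 peaks lay only at ends without strand. In 23 of the 25 the control held 5 tags or fewer, and in 3 it held 0.

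Among the tall peaks at starts, Tctex1d4, a dynein light chain family gene, had 456 (427 to 487) at chr4:117124397-117124597, 46 bp before the start, with a ratio of 157 (67.1 to 485). The promoter table places the start of Tctex1d4 farther inside the gene, so this peak lies in no promoter window and was not searched for motifs. Snrpc followed with the 388 given above, 102 bp before the start of the gene as the gene table places it and 161 bp before the start used for its promoter window. Mrc1, the mannose receptor gene of macrophages and sinusoidal endothelium, had 380 (354 to 408) at chr2:14230100-14230300, 786 bp into the gene, where the control had 1 tag (ratio 655, interval 117 to 25888). Arhgef4, a guanine nucleotide exchange factor gene, had 334 (309 to 360) at 406 bp before its start. The intervals of Snrpc and Mrc1 overlap, and so do those of Mrc1 and Arhgef4, whereas that of Tctex1d4 lies above them. A peak of 296 (273 to 321) lay at once 540 bp inside the start of Dok3, an adaptor protein gene of immune cells, and 605 bp outside the far end of the helicase gene Ddx41. The other starts were those of 1110008P14Rik with 268, Arsj, an arylsulfatase gene, with 218, Olfr1428, an olfactory receptor gene, with 205, and Samd11 with 201. Of these 9 peaks only those of Tctex1d4 and Snrpc lay within 200 bp of the start.

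Among the tall peaks at far ends, Rps15a, a ribosomal protein gene, had 336 (311 to 362) at chr7:118104784-118104984, 510 bp inside the end. No control tag was counted, and against a floor of 3 the ratio was 193 (exact lower limit 156). Adra2a, the gene of an alpha-2 adrenergic receptor, had 323 (299 to 349) at chr19:54048484-54048684, 398 bp inside the end, with 7 control tags and a ratio of 79.4 (38.3 to 198). Slc24a5, a cation exchanger gene, had 261 (239 to 284) 279 bp outside its end, and the control held 12 tags there, the highest control count at any peak at a gene end. The ratio was accordingly the lowest of the 25, at 37.4 (21.2 to 72.8). Tspo2, Taf9, a subunit gene of the general factor TFIID, and Irf2bpl had 253, 252 and 222. Birc5, which encodes survivin, had 212 (192 to 233) at 414 bp outside the end. Smtnl2, Gsta3, the interleukin-36 receptor gene Il1rl2, Zfp330 and the MHC class I gene H2-D1 lay between 195 and 181, too close to be ordered by their intervals. The remaining 3 without strand were Efcab2 with 196, Ang2, of the angiogenin ribonuclease family, with 182, and Cdh5, the VE-cadherin gene of endothelium, with 180 (162 to 200). Zinc finger, ribosomal protein, glutathione transferase, olfactory receptor and MHC genes belong to families with similar copies, and how tags mapping to several copies were treated is not given in the sources used here.

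**Figure D4:**
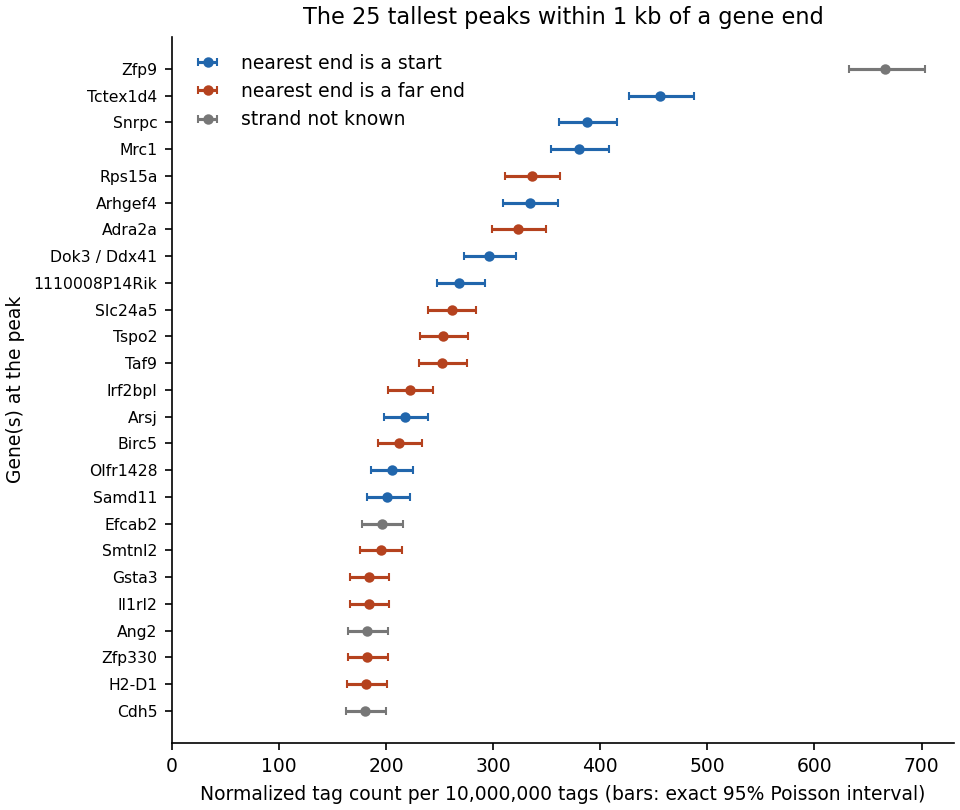
Height (x axis, normalized tag count per 10000000 tags) of the 25 tallest peaks within 1 kb of a gene end, 1 row per peak with its gene or genes. Bars are exact 95% Poisson intervals and colours give the kind of the nearest end. Zfp9 at 666 stands apart from Tctex1d4 at 456, and the lowest rows overlap one another.

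Shared bidirectional promoters often held a peak, of which the tallest reached 76.9. They are counted here as pairs of genes on opposite strands that point apart, with starts within 1 kb of each other. Of 567 such pairs, 208 (36.7%) had a peak within 1 kb of both starts, and 20 of them had 2. Of the 1127 genes in such pairs 423 (37.5%) had a peak at the start, against 2940 of 15330 genes in no pair (19.2%) and 20.4% of all genes with strand. A gene in a pair has the same 1 kb window as any other, but a single peak can serve both genes. Where the starts lay up to 100 bp apart, 93 of 282 pairs (33%) had a peak, and from there to 200 bp 48 of 125 (38.4%). From 200 to 400 bp it was 44 of 110 (40%), and from there to 1000 bp 23 of 50 (46%). The order of these shares was not tested.

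The 226 peaks at these promoters had a median height of 10.8 (quartiles 7.84 and 14.1). The 3027 peaks at other starts had the same median and an upper quartile of 15.7. At shared promoters 1 peak reached 50 (0.442%, 0.0112% to 2.44%) and 0 reached 100, for which the exact upper limit is 1.62%. At other starts 90 reached 50 (2.97%, 2.4% to 3.64%) and 35 reached 100 (1.16%, 0.807% to 1.6%). At 50 these intervals meet only at their edges, and at 100 the second lies within the first. Between the starts themselves lay 60 of the 226 (26.5%), and 148 (65.5%) lay within 200 bp of either start. Their median deposited fold over the surroundings was 7.48 in the authors' deposited table, against 8.39 at other starts.

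The tallest shared promoter was that of H2-T22, an MHC class I gene, and Gm6034, with 76.9 (65.4 to 90) at chr17:36042770-36042970, between starts 219 bp apart. The control held 1 tag, a ratio of 132 (23.4 to 5264). Next came Rad9b, a checkpoint clamp gene, and the retromer gene Vps29 with 44.6 (35.9 to 54.8), 3 bp from the start of Rad9b. The starts of Smtnl1 and Timm10, a chaperone gene of the mitochondrial intermembrane space, flanked a peak of 43.6 (35 to 53.7) almost midway, 97 and 77 bp away. Ostf1 and Nmrk1, a nicotinamide riboside kinase gene, had 38.2 (30.2 to 47.7), which lay 722 bp from the nearer start. The peak of 36.3 at Chtf8 and Utp4 also lay outside the gap, 461 bp from the nearer start. The ribosome biogenesis gene Nsa2 and the mitochondrial elongation factor gene Gfm2, with starts only 7 bp apart, had 34.8 (27.2 to 43.9).

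Further down, Aptx, a DNA repair gene, and the HSP40 gene Dnaja1 had 33.3, and Aldh6a1, an enzyme gene of valine breakdown, and Lin52 had 32.8, both between the starts. Txndc16 and Gpr137c had 29.9, Tcf19 and Cchcr1 28.4, Swt1 and the tRNA methyltransferase-like gene Trmt1l 26.5, and the deacylase gene Sirt6 and Ankrd24 26. The control held 0 tags at 3 of these, with ratios against the floor of 17.2 at Txndc16 and Gpr137c, 15.2 at Swt1 and Trmt1l, and 14.9 at Sirt6 and Ankrd24, and exact lower limits of 13.5, 11.9 and 11.7. Apart from the first, the intervals of neighbours in this order overlap. Of the 12, 4 held the midpoint between the starts.

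Over all genes, 5247 of 20665 (25.4%) had a peak at an end, and 749 (3.62%) had one with a height of 25 or more. Of genes with strand, 20.4% had one at the start and 7.83% at the far end. Gene lists of liver pathways and of general cell functions were set beside these shares. Lists were matched by symbol, intervals of their shares treat genes as independent although neighbours can share a peak, and no list was tested. The lists were drawn up with earlier results of these data known.

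**Figure D5:**
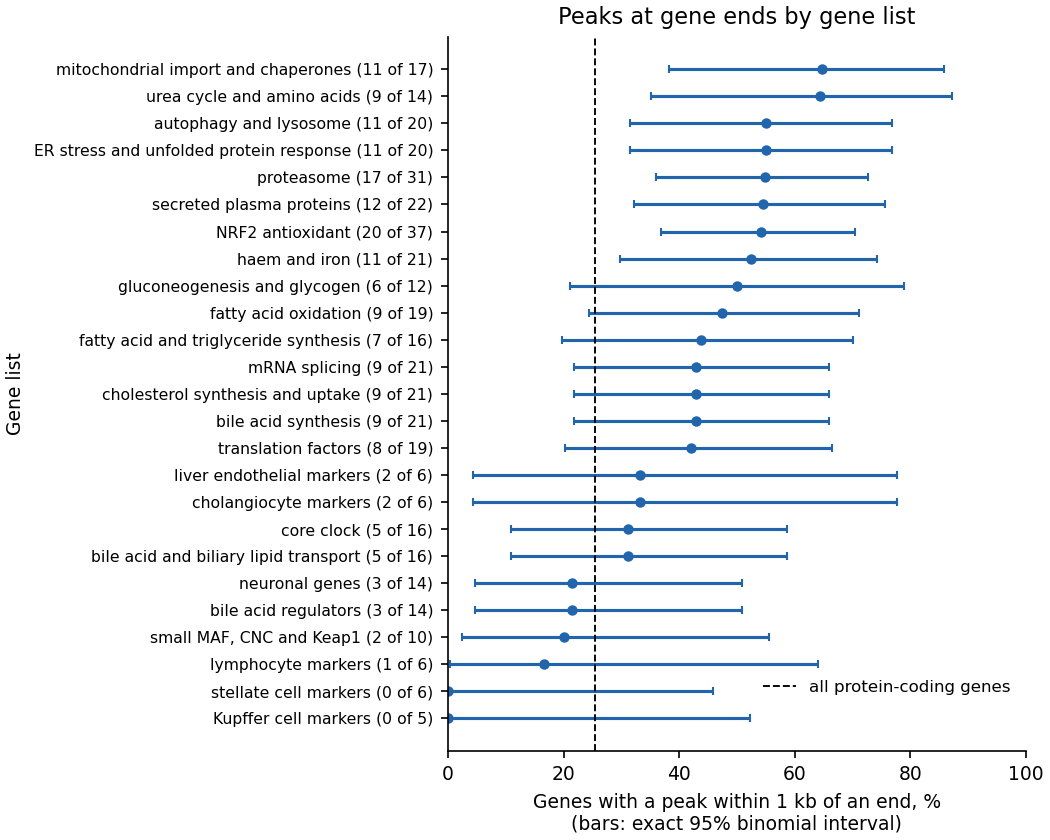
Share of genes with a peak within 1 kb of an end (x axis, percent) for 25 gene lists (y axis, with counts). Points are shares, bars are exact 95% binomial intervals, and the dashed line is the 25.4% of all protein-coding genes. The intervals of 8 lists, from mitochondrial import at 64.7% to haem and iron at 52.4%, lie wholly above the line.

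NRF2 antioxidant genes, which neutralise oxidants and conjugate foreign compounds, had many peaks at their ends, several of them tall. A peak was at an end of 20 of 37 (54.1%, 36.9% to 70.5%), against 25.4% of all genes, and one of 25 or more at 8 (21.6%), against 3.62%. The median over the list, with genes without a peak at 0, was 8.33, whereas the median over all genes was 0. The tallest were at the glutathione transferase genes Gsta3 with 184 (166 to 203), 670 bp inside its far end, Gstm4 with 141 and Gstp1 with 61.3. The other 5 of 25 or more, named after their values were seen, were the ferritin light chain gene Ftl1 with 58.8 (48.8 to 70.3), the peroxiredoxin genes Prdx6 with 32.8 and Prdx1 with 32.3, Gclm, the modifier subunit gene of glutathione synthesis, with 30.9, and Gsta4 with 29.9. The peak of Ftl1 lay 508 bp outside its far end and near an end of the glycogen synthase gene Gys1 as well.

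Mitochondrial import and chaperone genes had a peak at 11 of 17 (64.7%, 38.3% to 85.8%), of which 2 share their tallest peak, and 5 of the 17 (29.4%) had a height of 25 or more, against 3.62% of all genes. After Timm10, given above, these were the chaperonin genes Hspd1 and Hspe1 with a single peak of 29.9 (22.9 to 38.4), 252 bp inside Hspd1 and 157 bp before Hspe1. Their transcribed regions overlap at the starts, so they are not among the shared promoters counted above. Timm23, a channel subunit gene of the inner membrane, had 27 (20.3 to 35.1) at its far end, and Timm13, a further intermembrane chaperone gene, had 25 (18.6 to 32.9) 72 bp inside its start. Tomm40, the outer membrane channel gene, shared its peak of 20.6 with Apoe. Clpp, Lonp1, Grpel1, Tomm70a and Timm44 had heights from 12.3 down to 6.86, and Tomm20, Tomm22, Timm17a, Timm50, Hspa9 and Pam16 had none listed. The median of the list was 9.31.

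Proteasome genes had peaks with heights of up to 23.5. A peak was at an end of 17 of 31 (54.8%, 36% to 72.7%), and 0 reached 25, against 3.62% of all genes, which in a list of this size is about 1 gene. It was at the start in 14 of the 25 with strand, against 20.4% of all such genes, and at the far end in 1. The tallest were at Psmb6, a catalytic core subunit gene, with 23.5 (17.3 to 31.2), Psmd1, a cap subunit gene, with 20.6 (14.8 to 27.8), and Psma5, a core ring gene, with 14.7 (9.92 to 21). Autophagy and lysosome genes had 11 of 20 (55%, 31.5% to 76.9%), and 0 reached 25. Gabarapl1, of the ATG8 family on autophagosome membranes, had 22.1 (16.1 to 29.5) and Atg5 16.2, and the receptor gene Sqstm1 had none. Genes of the unfolded protein response also gave 11 of 20 and 0 at 25, with 20.1 (14.4 to 27.3) at both Calr, a lumenal chaperone gene, and Trib3, a target of the stress response, and 19.1 at the sensor gene Atf6. The stress factor genes Atf4 and Xbp1 had none.

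Haem and iron genes had a peak at 11 of 21 (52.4%, 29.8% to 74.3%), of which 2 reached 25. Beside Ftl1 this was Blvra, the biliverdin reductase gene, with 38.2 (30.2 to 47.7) 50 bp before its start, a peak also near Ap4e1. Of the haem synthesis genes, Alad had 16.7, Fech 13.7, Urod 9.31 and Ppox 7.35, and Alas1, the gene of the rate-limiting step, had none, nor did Uros and Cpox. The haem oxygenase gene Hmox1 had none either. The ferritin heavy chain gene Fth1 had 9.8, the transferrin gene Trf 12.3, the exporter genes Flvcr1 and Slc40a1 13.2 and 6.86.

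In the bile acid lists 2 peaks at gene ends reached a height of 25, and the exact intervals of all 3 shares include the background. Of 21 synthesis genes 9 (42.9%, 21.8% to 66%) had one, an interval that includes the 25.4% of all genes. Only Hsd3b7, which encodes a dehydrogenase of the steroid ring, reached 25, with 29.9 (22.9 to 38.4), and its peak also lay near Setd1a. Acox2, the side-chain oxidase gene, had 18.6 (13.2 to 25.6) 18 bp before its start. Cyp39a1 had 14.2, Akr1c6 13.7, Slc27a2 10.8, Akr1d1 7.84, Amacr 7.35 and Abcd3 6.86. Cyp7a1, whose product sets the rate of the classical pathway, had 6.37 (3.39 to 10.9), with 13 BLRP-MafG tags and 1 control tag. Cyp8b1, Cyp27a1 and Cyp7b1 had none listed at an end. Of 16 transporter genes 5 (31.2%) had one, led by the sterol exporter genes Abcg8 with 25 (18.6 to 32.9) and Abcg5 with 16.7. Slc51b had 11.8, the bile salt export pump gene Abcb11 9.31 and the ileal uptake gene Slc10a2 5.88. Of 14 regulators 3 (21.4%) had one, namely Klb with 16.2, Nr1i3 with 7.84 and Vdr with 6.37. Nr1h4, which encodes FXR, and Nr0b2, which encodes SHP, had none.

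Of the small MAF, CNC and Keap1 genes, 2 of 10 had a peak at an end, Nfe2l1 with 20.1 (14.4 to 27.3) and Nfe2 with 12.7 (8.32 to 18.7). Mafg, Maff, Mafk, Nfe2l2, Nfe2l3, Bach1, Bach2 and Keap1 had none there.

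Other metabolic lists had a peak at between 31.2% and 64.3% of their genes. A height of 25 or more was reached at 2 of 14 urea cycle genes (14.3%), 2 of 21 cholesterol genes (9.52%) and 2 of 22 plasma protein genes (9.09%). It was reached at 1 of 16 clock genes (6.25%) and at 0 of the other 3 lists, against 3.62% of all genes. Each of these shares thus rests on 1 or 2 genes at most. Urea cycle and amino acid genes had 9 of 14 (64.3%, 35.1% to 87.2%) and a median of 11.1. Cps1, the entry enzyme of the urea cycle, had 37.2 (29.3 to 46.6), 891 bp inside an end, where no control tag was counted (ratio 21.4 against the floor, exact lower limit 17). Asl, of the same cycle, had 26.5 (19.9 to 34.5), Hpd, of tyrosine breakdown, 23, Tat 20.1 and Arg1 10.3, and Ass1 had none. Secreted plasma protein genes had 12 of 22 (54.5%, 32.2% to 75.6%), led by complement C3 with 37.7 (29.8 to 47.2) at its far end, Apoa2 with 31.9 (24.6 to 40.6) and Apoe with 20.6. Cholesterol genes had 9 of 21 (42.9%), led by Fdps, the farnesyl diphosphate synthase gene, with 32.3 (25 to 41.1), the desaturase gene Sc5d with 28.9 (22 to 37.3) and Hsd17b7 with 22.1. Fatty acid oxidation genes had 9 of 19 (47.4%), with Eci2 highest at 23.5 and the carnitine shuttle gene Cpt1a at 10.3, and Hadha and Hadhb, the subunit genes of the trifunctional protein, shared a peak of 8.82 at their bidirectional promoter. Fatty acid and triglyceride synthesis genes had 7 of 16 (43.8%), with Elovl5 at 18.1 and Gpam at 17.6, and gluconeogenesis and glycogen genes 6 of 12 (50%), with the liver glycogen synthase gene Gys2 at 23. For the cholesterol, fatty acid and gluconeogenesis lists, and for the core clock list, the exact interval includes the 25.4% of all genes. Core clock genes had 5 of 16 (31.2%, 11% to 58.7%), and 1 of these reached 25, the repressor gene Nr1d1 with 42.1 (33.7 to 52) 155 bp before its start.

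Marker genes of the other liver cell types with a peak at an end were 0 of 5 for Kupffer cells, 0 of 6 for stellate cells, 1 of 6 for lymphocytes, 2 of 6 for cholangiocytes and 2 of 6 for endothelium. The exact upper limits of the first pair are 52.2% and 45.9%, so these counts do not set the lists apart from the background. After Cdh5 at 180, the markers with a peak were Spp1 with 38.2 (30.2 to 47.7), Cd3e with 24.5, Lyve1 with 18.1 and Cftr with 5.39. A peak near a marker gene says nothing of which cells held it.

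The 1 kb limit cut through peaks of ordinary height. Just inside it lay peaks of C1qtnf12 with 7.35 and Olfr147 with 6.37, both 1000 bp from the end, and of Eapp with 14.7 at 998 bp. Just outside, at 1001 bp, lay peaks of Fmo2 and Krt25 with 6.37 each and of Cyp2d9 with 19.1.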

How the data were processed

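Each BLRP group had 2 libraries, and the data were 1 deposited list of peaks. The submitters' processing notes name Bowtie2, HOMER and mm10, and no version is given in the sources used here. HOMER findPeaks, per the file headers, called peaks of 200 bp on 1 BLRP-MafG tag collection over 1 control collection, at 10-fold or more over control and 4-fold or more over 10 kb around the peak. The normalized tag count is a signal that the authors scaled to 10000000 tags, and the control column is an unscaled tag signal. The deposited folds are linear ratios, and the deposited p-values weigh tags, not animals, and were not used. Multiplied back by the 20406492 tags of the header, normalized tag counts came within 0.102 of whole tags, which gave exact 95% Poisson and conditional binomial intervals. A ratio against 0 control tags uses a floor of 3.

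Genes, starts and promoter windows came from RefSeq tables of GRCm38.p6, with strand from the promoter table. Of the genes of 25 lists, 9 are not on chromosomes 1 to 19 and were left out. Named genes were those at the 25 tallest peaks, at the 12 tallest shared promoters and at the 3 tallest peaks of each list (any gene of lists of up to 21), those at the 1 kb limit, and the 5 with most peaks, ties by height. The members, lists and motifs were chosen with earlier results of these data known. No test was made, for want of values per library. Python 3.11.15, numpy 2.4.6, pandas 2.3.3 and scipy 1.17.1 were used, and the scripts were tested on simulated data. Windows, overlap, fold, tag minimum and gap of paired starts were varied.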

Additional observations from a re-analysis of the deposited data

How the results depend on the processing

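Over 9 results and 7 alternatives, 15 of 30 values kept within 1.5 times for counts or within the counting interval for shares and medians. The share of peaks at gene ends, 7.79%, was 5.24% in a window of 500 bp, 11.8% in 2 kb, 8.26% by any overlap, 7.11% at a fold of at least 20 and 7.2% at 20 tags or more. Their number was 7921 in 2 kb, 3054 at the fold of 20 and 3022 at 20 tags. That fold also gave a median height of 12.3, 132 peaks at shared promoters and 3208 genes with a peak. The far-end median was 11.3 in 500 bp, where the start median was 10.8. The start share of peaks with known strand, 76%, was 81% in 500 bp, 71.5% in 2 kb and 74.4% at the fold of 20. Smaller windows and stricter limits hold fewer peaks by construction. The share of windows with the joint element, 2.01%, was 2.07% with 1 promoter window per gene, an alternative chosen after seeing the data. No paired analysis was possible because the list holds no value per library, and no replicate could be left out for the same reason. Depth limits single low peaks: 13 tags against 1 in the control, as at Cyp7a1, give a ratio of 11 with an exact interval of 1.65 to 466.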

Other observations

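Several genes had peaks at both ends. Of the 5247 genes with a peak at an end, 620 had 2 or more, 38 had 3 and none had 4. Of the genes with strand, 283 had different peaks at the start and at the far end. The 5 with 3 peaks and the tallest among them were Dmbt1, a mucin-like scavenger gene, with heights of 26, 11.3 and 55.4, Nbr1, an autophagy receptor gene, with 12.7 and 11.8 at the start and 37.7 at the far end, Slc17a5, the lysosomal sialic acid exporter gene, with 11.3 and 30.4 at the start and 14.2 at the far end, Slc25a44, a mitochondrial carrier gene, with 11.8, 28.4 and 13.2, and AI429214 with 5.39, 8.82 and 27. AI429214 is 1959 bp long, so its ends lie close together.

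Splicing, translation factor and neuronal genes had peaks of ordinary height at their ends. Of 21 splicing genes 9 (42.9%, 21.8% to 66%) had one and 0 reached 25, with Srsf6, Srsf3 and Prpf8 highest at 14.7, 12.7 and 11.8. Of 19 translation factor genes 8 (42.1%, 20.3% to 66.5%) had one, led by Eef1b2 with 20.1, Eif5 with 16.7 and Eif4e with 16.2. Of 14 neuronal genes 3 (21.4%, 4.66% to 50.8%) had one, Gad2 and Map2 with 8.82 each and Grin2a with 6.37. All 3 intervals include the 25.4% of all genes.

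By chromosome, the share of peaks that lay at gene ends ran from 5.31% on chromosome 18 to 10.6% on chromosome 11, and the share of genes with such a peak from 20.1% on chromosome 7 to 30.9% on chromosome 8. Chromosome 9, with 318 such peaks, had none above 92.6.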
